A study of Mus musculus with 54 samples.

Results

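Mouse peritoneal macrophages were profiled by RNA-seq, and the genes described here are those that carry glucose into the cell, carry lactate out of it, or set the pace of glycolysis between those steps. The set comprised 10 genes chosen by symbol out of the 39179 genes counted: the glucose transporter genes Slc2a1, Slc2a3, Slc2a6, Slc2a8 and Slc2a9, the monocarboxylate transporter genes Slc16a1, Slc16a3 and Slc16a7, and the bifunctional enzyme genes Pfkfb3 and Pfkfb4. The rule uses symbols alone, although the set was drawn up with earlier results of these data known. All 10 passed the filter on low counts in both experiments.

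Glucose enters cells down its gradient through the GLUT family encoded by Slc2a genes. Slc2a1 encodes GLUT1, the widespread basal carrier, and Slc2a3 encodes GLUT3, a high-affinity carrier best known from neurons and leukocytes. Slc2a6 and Slc2a8 encode GLUT6 and GLUT8, which reside largely on intracellular membranes, and Slc2a9 encodes GLUT9, a urate transporter. Lactate and pyruvate cross the membrane together with a proton through the MCT proteins: Slc16a1 encodes MCT1, which works in either direction, Slc16a3 encodes MCT4, the main lactate exporter of glycolytic cells, and Slc16a7 encodes MCT2, a high-affinity pyruvate and lactate carrier. The PFKFB enzymes make and degrade the small sugar phosphate that activates phosphofructokinase, and the Pfkfb3 product strongly favours its synthesis. Macrophages activated by lipopolysaccharide are known for a high rate of glycolysis.

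All cells were thioglycolate-elicited peritoneal macrophages of C57BL/6 mice, recovered 4 days after injection and purified by adherence. In the polarization experiment, cells of 3 mice were left unstimulated (M0), given LPS at 100 ng/ml together with IFNγ at 50 ng/ml (M1-like), or IL-4 at 10 ng/ml (M2-like) for 24 h, with 2 technical replicate libraries for each mouse and condition. In the reprogramming experiment, with 3 libraries for each of 12 conditions, M0, M1-like and M2-like cells were left untransfected or received transfection reagent alone (mock), and M2-like cells received a negative siRNA pool, an siRNA pool against E2f1, Myc, Pparg or Stat6, or the combined pool against these 4 factors. The methods name Dharmacon as supplier of the Myc siRNA and siTools Biotech for the E2f1, Pparg and Stat6 pools. Target and supplier therefore cannot be told apart for Myc. RNA of transfected cells was taken 48 h after transfection, and IL-4 was not renewed. The harvest time of the untransfected libraries of that experiment is not given in the sources used here. The methods speak of biological replicates for the polarization states and the combined pool in their account of quantitative PCR, and the labels do not say whether the 3 libraries of a reprogramming condition came from separate mice or cultures, so p-values there measure the spread between libraries. That spread was larger than counting error, with a chi-square per gene of 4.27 to 21.3 between libraries of a condition. In the polarization experiment it was 5.54 to 29.5 between mice in M0 and M1-like cells. In M2-like cells mouse 1 stood apart, at 81.2 and 89.7 against mice 2 and 3, which differed from each other by 5.6. The controls of both experiments carry the same thioglycolate stimulus as the treated cells.

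Libraries held 19714994 to 29880494 counted reads in the polarization experiment and 13421854 to 19704195 in the reprogramming experiment. Technical replicates differed by little more than sampling noise (chi-square per gene 1.07 to 1.09, where counting error alone gives 1) and were summed. The labels matched the polarization markers: the summed level of 6 M1-like markers was 15014 to 18223 CPM (a gene's reads scaled to the library total) in M1-like cells at 24 h against at most 25.1 in M0 and M2-like cells, and the summed level of 6 M2-like markers was 6062 to 7713 CPM in M2-like cells against at most 310.9 elsewhere in that experiment. The M2-like sum was mostly Chil3, at a mean of 5927 CPM in M2-like cells. Arg1, of the same list, was higher than in M0 (mean 5.52 CPM) in both M2-like (471 CPM) and M1-like cells (156 CPM). In untransfected cells of the reprogramming experiment the sum was 1406 to 1840 CPM in M2-like cells against at most 247.5 in M0 and M1-like cells. Arg1 was not higher there in M2-like than in M0 cells (means of 30.4 and 38.3 CPM). All 7 macrophage markers were present in all conditions, with sums of 10281 to 17376 CPM at 24 h, 6211 to 7786 CPM in the M1-like groups of the reprogramming experiment, and 11632 to 18320 CPM in its other groups. Because the RNA is from whole cultures, fewer cells of a type and less RNA per cell cannot be told apart.

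Every value below is in CPM after TMM scaling within its experiment, and levels of different genes are compared only after division by exon length (CPM per kb). Differences were tested by edgeR's quasi-likelihood test, a 2-sided test fitted across all genes of an experiment, with Benjamini-Hochberg adjustment over 16110 genes in the polarization experiment and 14172 in the reprogramming experiment. A gene was said to rise or fall where its adjusted p was under 0.05, and log2 fold changes are given ± standard error.

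On the GRCm38 annotation the glucose transporter genes lie on 4 chromosomes. Slc2a1 (ENSMUSG00000028645) spans chr4:119108711-119137983 on the plus strand, Slc2a3 (ENSMUSG00000003153) chr6:122727809-122801640 on the minus strand, and Slc2a9 (ENSMUSG00000005107) chr5:38349273-38503143 on the minus strand. Slc2a6 (ENSMUSG00000036067) at chr2:27021363-27027998 and Slc2a8 (ENSMUSG00000026791) at chr2:32972990-32982083, both on the minus strand, share chromosome 2 with Pfkfb3 (ENSMUSG00000026773) at chr2:11471433-11554077, also on the minus strand. Slc16a1 (ENSMUSG00000032902) spans chr3:104638668-104658462 and Slc16a3 (ENSMUSG00000025161) chr11:120948480-120960868, both on the plus strand. Slc16a7 (ENSMUSG00000020102) lies at chr10:125219270-125389465 on the minus strand and Pfkfb4 (ENSMUSG00000025648) at chr9:108991778-109032228 on the plus strand. Values are per gene and therefore sum over exons and transcripts. Slc2a1, Slc16a7 and Pfkfb3 overlap antisense genes, and whether reads were counted by strand is not given in the sources used here, so their reads cannot be separated from those of the antisense partners. A processed pseudogene, Gm4482, lies within Slc2a3.

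RefSeq promoter windows (GRCm38.p6, 250 bases before to 50 bases after a transcription start) were found for 8 of the 10 genes, with 9 windows in all because Pfkfb3 has 2 starts in the table. The upstream bases of 5 of these windows are shown because they belong to the genes that rose most in M1-like cells at 24 h, Slc16a3, Slc2a6, Slc2a1 and Pfkfb3, and to Slc16a1, which rose less. Capitals mark ACGTG, the core of the hypoxia response element, or CACGTG, the E-box that contains it. All are written 5′ to 3′ on the strand of the gene. The stretches are chr4:119108495-119108713 (plus) for Slc2a1, chr2:27027999-27028248 (minus) for Slc2a6, chr3:104638414-104638663 (plus) for Slc16a1, chr11:120948817-120949057 (plus) for Slc16a3, and chr2:11502102-11502340 (minus) for the inner start of Pfkfb3.
Slc2a1: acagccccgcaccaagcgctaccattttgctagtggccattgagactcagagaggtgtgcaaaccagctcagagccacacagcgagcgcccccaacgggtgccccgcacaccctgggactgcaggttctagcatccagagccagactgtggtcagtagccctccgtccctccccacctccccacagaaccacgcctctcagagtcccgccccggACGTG
Slc2a6: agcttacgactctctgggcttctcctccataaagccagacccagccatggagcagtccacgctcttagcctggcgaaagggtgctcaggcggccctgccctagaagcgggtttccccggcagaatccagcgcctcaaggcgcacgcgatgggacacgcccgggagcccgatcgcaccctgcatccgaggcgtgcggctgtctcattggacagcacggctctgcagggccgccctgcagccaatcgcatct
Slc16a1: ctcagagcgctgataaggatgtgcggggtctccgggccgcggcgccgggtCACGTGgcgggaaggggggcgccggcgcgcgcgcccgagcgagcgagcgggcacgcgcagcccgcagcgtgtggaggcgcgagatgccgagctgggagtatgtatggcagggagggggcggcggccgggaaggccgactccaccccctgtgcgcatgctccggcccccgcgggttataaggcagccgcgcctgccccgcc
Slc16a3: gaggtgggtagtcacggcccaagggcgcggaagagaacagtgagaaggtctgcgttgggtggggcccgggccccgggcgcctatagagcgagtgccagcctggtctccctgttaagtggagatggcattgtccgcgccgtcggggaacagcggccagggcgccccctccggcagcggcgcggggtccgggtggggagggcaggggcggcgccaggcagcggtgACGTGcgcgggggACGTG
Pfkfb3: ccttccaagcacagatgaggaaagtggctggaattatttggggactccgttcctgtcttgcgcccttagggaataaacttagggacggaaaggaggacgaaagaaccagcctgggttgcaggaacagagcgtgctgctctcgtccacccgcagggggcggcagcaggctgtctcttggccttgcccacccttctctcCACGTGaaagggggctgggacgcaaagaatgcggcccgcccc
ACGTG on either strand was present in 5 of the 9 windows, those of Slc2a1, Slc16a1, Slc16a3 and both Pfkfb3 starts, against 19.6% of the 32851 windows of all genes. The upstream bases of these 5 windows were 60.4 to 76.4% GC, against a median of 52.4% over all windows. Those of Slc2a6, Slc2a8, Slc2a9 and Pfkfb4 were 48.8 to 65.2% GC. The part of base composition in the matches was not tested. In Slc2a1 it lay 36 bases before the RefSeq start, and Slc16a3 held it both 27 and 14 bases before the RefSeq start. In the GENCODE M21 gene models the last 3 bases printed for Slc2a1 and the last 5 for Slc16a3 are exonic. The Slc2a1 match thus overlaps an exon, and the Slc16a3 match nearer the start lies within an exon. For the outer Pfkfb3 start, which is not shown, the last 93 of the 195 bases up to the end of its match are exonic, the match included. The Slc16a3 stretch as a whole lies within the GENCODE span of its gene. The full E-box CACGTG was found in 2 windows, Slc16a1 and the inner Pfkfb3 start, against 7.15% of all windows. Neither the NF-kB-like pattern (1.63% of all windows) nor the STAT pattern TTCNNNGAA (8.3%) or its STAT6 form with 1 more base of spacing (6.95%) was present in any of the 9 windows, on either strand. Slc2a6 held none of the patterns in the forms searched. The NF-kB-like pattern was 3 G, any 2 bases, 3 T and 2 C, in that order. Looser forms of it were not searched, so its absence does not show that a window lacks similar sequences. The matches found are letters in a window and were not tested as binding sites.

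Slc2a1 was the most abundant transcript of the set per kb in all 15 conditions, and Slc2a3 the least abundant in all 15. Their mean levels ranged from 24.3 to 267 CPM per kb for Slc2a1 and from 0.124 to 0.671 CPM per kb for Slc2a3, which had only 14 to 102 reads in a sample. In M0 cells at 24 h the order after Slc2a1 (25.4 CPM per kb) was Pfkfb3 (11.3), Pfkfb4 (11.2), Slc2a6 (6.42), Slc16a3 (5.58), Slc2a8 (4.87), Slc16a1 (4.28), Slc16a7 (2.51), Slc2a9 (2.11) and Slc2a3 (0.253 CPM per kb). Samples of Pfkfb3 and Pfkfb4 overlapped, as did those of Slc2a8 and Slc16a1, so their order is not resolved. In M1-like cells at 24 h, Slc2a1 (267 CPM per kb), Slc16a3 (173), Slc2a6 (146) and Pfkfb3 (82.8) stood above all others, the next being Slc16a1 at 7.33 CPM per kb. In M2-like cells at 24 h, Pfkfb4 (13.4 CPM per kb) ranked above Pfkfb3 (8.38), and Slc16a1 (6.74) above Slc16a3 (3.61).

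The range over the study differed widely between genes. The highest group mean was 48.03-fold the lowest for Slc16a3, 27.0-fold for Slc2a6, 11.01-fold for Slc2a1 and 9.87-fold for Pfkfb3, and it was between 2.30-fold (Pfkfb4) and 5.42-fold (Slc2a3) for the other 6 genes. These folds span both experiments, which were scaled separately, and carry no test.

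**Figure D1:**
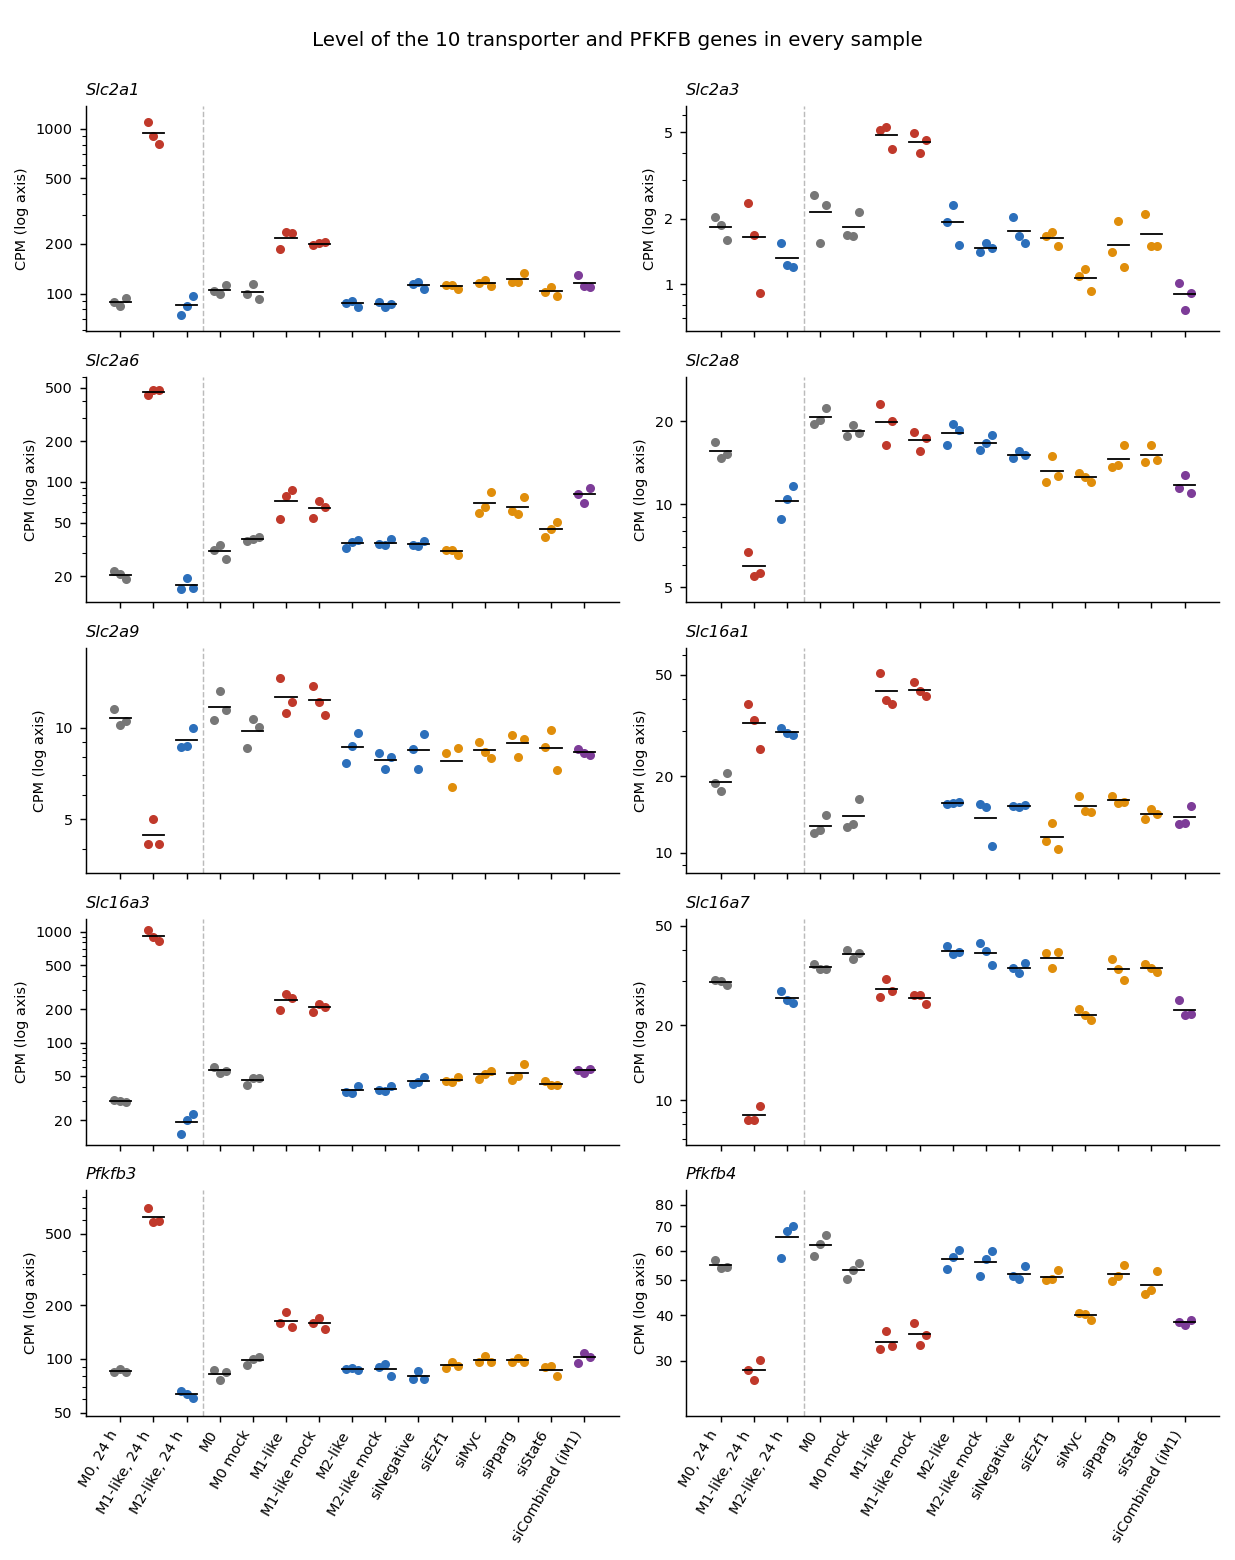
Level of each of the 10 genes in CPM (log axis) in every sample of the 15 conditions; points are samples and the short bars are group means. Slc16a3, Slc2a6, Slc2a1 and Pfkfb3 stand highest in M1-like cells at 24 h, and the combined-pool samples of Slc2a6 (69.8 to 90.5 CPM) overlap with its mock M1-like samples (54.3 to 72.6 CPM).

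The first comparison asked how the classical stimulus changes these genes within 24 h. Against M0, M1-like cells had 5 of the 10 genes higher and 4 lower, where 35.4% of all genes tested were called higher and 37.5% lower. The 9 of 10 called compare with 72.9% of all genes in either direction. The median absolute log2 fold change was 1.58 over the 10 genes and 0.58 over all genes tested.

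Among the glucose transporters, Slc2a1 and Slc2a6 rose. Slc2a1 stood at 88.2, 84.1 and 94.4 CPM in the M0 samples of mice 1 to 3, at 1103, 897 and 810.4 CPM in their M1-like samples, and at 73.9, 84.5 and 96.7 CPM in their M2-like samples. The M1-like samples lay far above both other groups, which overlapped. The rise over M0 was 10.5-fold (log2 3.40 ± 0.13, edgeR adjusted p = 2.20e-10). Slc2a6, at 21.9, 20.9 and 19.1 CPM in M0, reached 443, 479 and 480.5 CPM in M1-like cells and stood at 16.1, 19.3 and 16.4 CPM in M2-like cells. That was a 22.7-fold rise over M0 (log2 4.50 ± 0.091, edgeR adjusted p = 1.16e-12), larger in ratio than that of Slc2a1, and the ratio of Slc2a6 to Slc2a1 per kb went from 0.254 ± 0.029 to 0.556 ± 0.11 (SD, n = 3 mice).

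The other carriers of the family went down or stayed unresolved. Slc2a8 fell from 16.9, 14.7 and 15.3 CPM in M0 to 6.73, 5.52 and 5.62 CPM in M1-like cells, with M2-like cells between them at 8.87, 10.4 and 11.6 CPM, and none of the 3 groups overlapped. Its log2 fold change against M0 was -1.39 ± 0.12 (edgeR adjusted p = 3.51e-07). Slc2a9, the urate carrier, fell from 11.5, 10.2 and 10.5 CPM to 4.16, 5.01 and 4.16 CPM (log2 -1.27 ± 0.11, edgeR adjusted p = 3.56e-07). Slc2a3 was at 2.04, 1.86 and 1.60 CPM in M0 and 2.35, 1.69 and 0.915 CPM in M1-like cells, groups that overlapped (log2 -0.17 ± 0.27, edgeR adjusted p = 0.572).

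Of the monocarboxylate transporters, the exporter gene Slc16a3 changed most of the 10 genes. Its M0 samples stood at 30.2, 29.7 and 29.3 CPM, its M1-like samples at 1039, 896 and 831 CPM, and its M2-like samples at 15.1, 19.9 and 22.6 CPM. The 3 groups did not overlap. M1-like cells were 31.0-fold above M0 (log2 4.96 ± 0.14, edgeR adjusted p = 1.94e-11) and 47.9-fold above M2-like cells (log2 5.58 ± 0.15, edgeR adjusted p = 9.60e-12). Slc16a1 rose less, from 18.8, 17.5 and 20.6 CPM in M0 to 38.4, 33.3 and 25.6 CPM in M1-like cells (log2 0.77 ± 0.12, edgeR adjusted p = 1.19e-04). Slc16a7 moved the other way, from 30.4, 30.1 and 28.8 CPM to 8.32, 8.30 and 9.49 CPM, a 3.41-fold fall (edgeR adjusted p = 6.60e-10). Per kb, the ratio of Slc16a3 to Slc16a1 was 1.31 ± 0.12 without stimulus, 23.98 ± 2.7 with LPS and IFNγ and 0.539 ± 0.12 with IL-4 (SD, n = 3).

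The PFKFB genes moved in opposite directions. Pfkfb3 rose from 84.8, 87.4 and 85.0 CPM in M0 to 702, 581 and 593 CPM in M1-like cells (log2 2.87 ± 0.082, edgeR adjusted p = 1.66e-11), with M2-like cells below M0 at 66.5, 63.4 and 60.2 CPM. Pfkfb4 fell from 56.5, 53.7 and 54.3 CPM to 28.3, 26.6 and 30.2 CPM (log2 -0.95 ± 0.080, edgeR adjusted p = 4.27e-07), and M2-like cells stood above M0 at 57.4, 68.1 and 70.2 CPM. Per kb the ratio of Pfkfb3 to Pfkfb4 was 1.01 ± 0.041 without stimulus, 14.3 ± 1.7 with LPS and IFNγ and 0.634 ± 0.10 with IL-4 (SD, n = 3), with no overlap between these groups.

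Set against M2-like cells instead of M0, M1-like cells had 4 genes higher and 4 lower, beside 34.6% and 38.1% of all genes. These comparisons share the M1-like samples. Slc2a1 (log2 3.46 ± 0.13), Slc2a6 (4.76 ± 0.092), Slc16a3 and Pfkfb3 (3.30 ± 0.083) were higher, and Slc2a8 (-0.80 ± 0.12), Slc2a9 (-1.04 ± 0.11), Slc16a7 (-1.56 ± 0.076) and Pfkfb4 (-1.20 ± 0.081) lower. Slc16a1 (log2 0.12 ± 0.12, edgeR adjusted p = 0.393) and Slc2a3 (0.30 ± 0.28, edgeR adjusted p = 0.337) were not called. Both were called without the M1-like sample of mouse 3, at 0.27 (edgeR adjusted p = 0.0194) and 0.62 (edgeR adjusted p = 0.0179). Among markers of other cells, the summed level of 4 dendritic cell markers was 29.0 to 39.8 CPM in M1-like cells against 2.43 to 8.94 CPM in the others, and that of 8 neutrophil markers was 10.1 to 15.2 CPM against 29.5 to 42.4 CPM. Only S100a8 and Mmp8 of the neutrophil list had a mean of at least 1 CPM in any of these groups, and of these Mmp8 was lower in M1-like cells, at a mean of 0.725 CPM against 24.9 in M0 and 33.3 in M2-like cells. The lower neutrophil sum thus rested on Mmp8, while S100a8 was not lower in M1-like cells. The summed level of 5 eosinophil markers was 0.270 to 0.817 CPM against 14.1 to 19.1 CPM, but it rested on Siglecf, with Prg2 at 0 in all 9 samples. The part of these markers in the results was not tested.

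The IL-4 stimulus was the second question. M2-like cells at 24 h differed from M0 in 7 genes, 2 higher and 5 lower, where 13.5% and 14.4% of all genes were called (27.9% in either direction). The largest changes were a rise of Slc16a1 to 31.0, 29.6 and 28.9 CPM (log2 0.65 ± 0.12, edgeR adjusted p = 0.00224) and falls of Slc16a3 (-0.63 ± 0.13, edgeR adjusted p = 0.00350), Slc2a8 (-0.60 ± 0.11, edgeR adjusted p = 0.00201) and Pfkfb3 (-0.44 ± 0.077, edgeR adjusted p = 0.00155). Samples of these 4 genes did not overlap between the groups. With IL-4 the bidirectional carrier gene was higher and the exporter gene lower, whereas both were higher with LPS and IFNγ. Slc2a6 (-0.25 ± 0.083), Slc16a7 (-0.21 ± 0.070) and Pfkfb4 (0.25 ± 0.078) passed with edgeR adjusted p = 0.0416, 0.0408 and 0.0329, but each call was lost in most fits that left out 1 sample. The Slc2a6 call was lost without the M0 sample of mouse 1 or 2 or the M2-like sample of mouse 1 or 3 (edgeR adjusted p = 0.0864 to 0.164). Those of Slc16a7 and Pfkfb4 were lost without any of the M0 samples and without the M2-like sample of mouse 2 or 3 (edgeR adjusted p = 0.0692 to 0.136 and 0.0687 to 0.113). The Slc16a7 call was also lost with mouse as a block (edgeR adjusted p = 0.0625). Slc2a1 (-0.06 ± 0.12) did not pass.

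In the reprogramming experiment the same polarization states were measured again, in untransfected and mock-treated cells, in libraries that differ from the 24 h ones in read length, sequencing laboratory and, for mock cells, time after the stimulus, while for untransfected cells the time is not known. These differences cannot be told apart between the experiments. Untransfected M1-like cells had 6 of the 10 genes higher and 2 lower than M0 (29.0% and 28.7% of all genes, 57.7% together), and 7 higher and 2 lower than M2-like cells (31.3% and 30.2%, 61.5% together). With mock treatment the counts were 7 and 2 against M0 (30.3% and 30.0%) and 7 and 2 against M2-like cells (30.9% and 29.8%, 60.7% together). The median log2 fold change of the 10 genes was 1.02 in untransfected M1-like cells against M0 and that of all genes 0.010.

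Slc16a3 again stood far above its controls. It was at 59.7, 53.3 and 55.6 CPM in untransfected M0 libraries, 36.1, 35.1 and 40.2 CPM in M2-like and 197, 276 and 255 CPM in M1-like libraries (log2 2.71 ± 0.11 against M2-like, edgeR adjusted p = 4.96e-20). Mock M1-like libraries, at 189.7, 224 and 210.4 CPM, overlapped with the untransfected ones. Slc16a1 reached 50.9, 39.96 and 38.5 CPM in M1-like cells against 15.6, 15.7 and 15.8 CPM in M2-like cells (log2 1.46 ± 0.12, edgeR adjusted p = 1.22e-12), a difference that had not been resolved at 24 h. Slc2a1 was at 186, 235 and 233 CPM against 87.9, 89.9 and 83.3 CPM (log2 1.32 ± 0.085, edgeR adjusted p = 6.09e-15).

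Slc2a3, the high-affinity carrier, was higher in these M1-like cells in all 4 comparisons. It stood at 5.13, 5.29 and 4.16 CPM in untransfected M1-like cells, 1.93, 2.32 and 1.52 CPM in M2-like cells and 2.56, 1.55 and 2.32 CPM in M0 cells. The groups did not overlap, and the log2 fold change was 1.33 ± 0.20 against M2-like (edgeR adjusted p = 1.06e-06) and 1.19 ± 0.20 against M0 cells (edgeR adjusted p = 6.63e-06). Reads in the overlapping pseudogene Gm4482 cannot be separated from these low counts. Slc2a6 stood at 53.4, 78.3 and 86.6 CPM in M1-like and 32.7, 35.7 and 37.0 CPM in M2-like cells (log2 1.05 ± 0.14, edgeR adjusted p = 1.45e-07).

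The PFKFB pair again parted. Pfkfb3 was at 158, 183 and 151 CPM in untransfected M1-like cells against 87.6, 89.1 and 86.6 CPM in M2-like cells (log2 0.90 ± 0.075, edgeR adjusted p = 3.80e-12). Pfkfb4 was at 32.4, 36.3 and 32.9 CPM against 53.5, 57.5 and 60.1 CPM (log2 -0.75 ± 0.073, edgeR adjusted p = 1.23e-10). Neither gene overlapped between these groups, and the ratio of Pfkfb3 to Pfkfb4 per kb was 3.12 ± 0.15 in M1-like and 0.995 ± 0.063 in M2-like cells (SD, n = 3). Slc16a7 was also lower in M1-like cells, at 25.9, 30.6 and 27.5 CPM against 41.5, 38.4 and 39.3 CPM.

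Slc2a8 and Slc2a9, which were lower in M1-like cells at 24 h, were not lower here. Slc2a8 was at 23.2, 16.4 and 20.1 CPM in untransfected M1-like cells, overlapping with M2-like (16.4, 19.6 and 18.6 CPM) and M0 cells (19.5, 20.2 and 22.3 CPM), and no contrast of M1-like cells passed; that against M2-like cells passed without M1-like replicate 2 (log2 0.25, edgeR adjusted p = 0.0463). Slc2a9 was at 14.6, 11.2 and 12.1 CPM in M1-like and 7.65, 8.70 and 9.59 CPM in M2-like cells, which made it higher in M1-like cells (log2 0.55 ± 0.13, edgeR adjusted p = 6.50e-04). Against mock M0 cells, mock M1-like cells had Slc2a9 higher by 0.33 ± 0.13 on the log2 scale (edgeR adjusted p = 0.0273), a call lost with DESeq2 (adjusted p = 0.0529), without mock M0 replicate 1 (0.25, edgeR adjusted p = 0.140) and without mock M1-like replicate 1 (0.25, edgeR adjusted p = 0.142). The difference between the experiments was not tested.

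**Figure D2:**
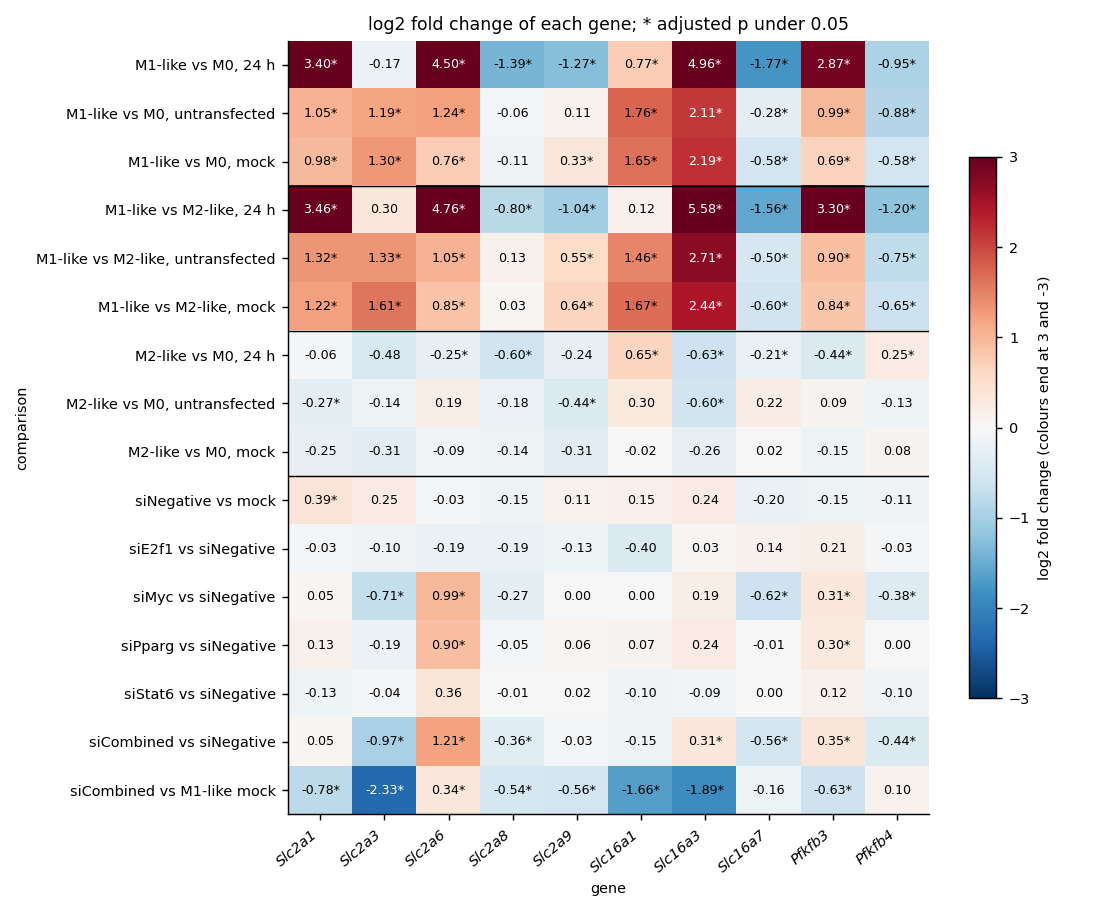
Heat map of edgeR log2 fold changes of the 10 genes (columns) in 16 comparisons of both experiments (rows); each cell prints its value, red is higher and blue lower in the first group named, and an asterisk marks an adjusted p under 0.05. Slc16a3 reaches 5.58 against M2-like cells at 24 h and 2.71 in the untransfected cells of the reprogramming experiment.

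**Figure D3:**
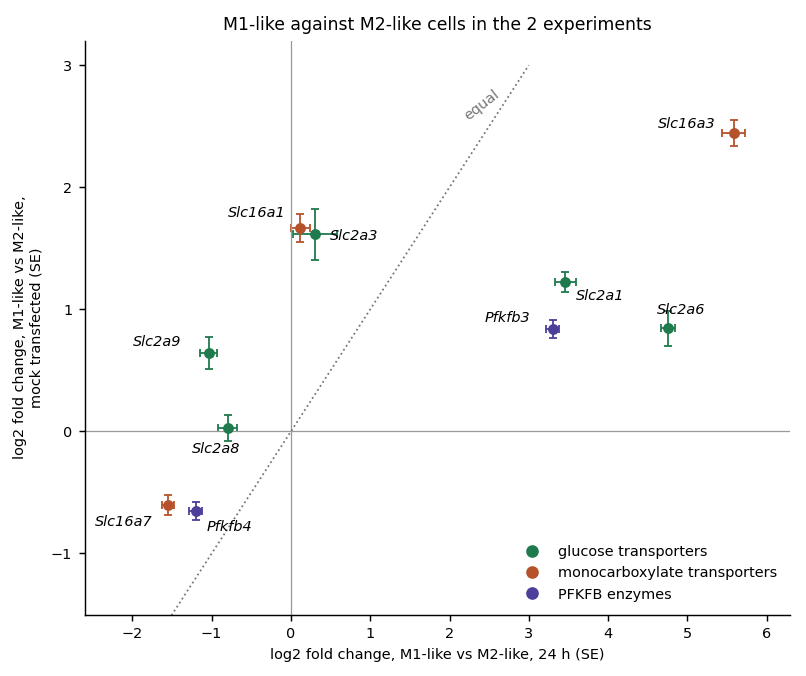
Difference between M1-like and M2-like cells on the log2 scale at 24 h (horizontal axis) and in mock-treated cells of the reprogramming experiment (vertical axis) for the 10 genes, with standard errors; the dotted line marks equal values. Slc2a9 lies on opposite sides of 0 on the axes (-1.04 and 0.64), and Slc2a3 and Slc16a1 lie near 0 on the horizontal axis only.

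Markers of other cells moved with these contrasts. The summed level of 6 mesothelial and fibroblast markers, of which 3 to 5 had a mean of at least 1 CPM in a group, was 18.2 to 61.4 CPM in the M1-like libraries and 86.0 to 355.7 CPM in the other libraries of the reprogramming experiment. That of 5 B cell markers was 0.733 to 2.36 CPM in M1-like libraries and 6.38 to 34.9 CPM in the others, and that of 5 eosinophil markers was 0.611 to 1.70 and 9.47 to 46.1 CPM, of which Siglecf alone reached a mean of 1 CPM. At 24 h the mesothelial and fibroblast sum was 8.81 to 25.5 CPM over all 9 samples. Their part in the results was not tested.

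Between M2-like and M0 cells 3 of the 10 genes passed here. Without transfection Slc16a3 (log2 -0.60 ± 0.11, edgeR adjusted p = 1.38e-04), Slc2a9 (-0.44 ± 0.13, edgeR adjusted p = 0.0182) and Slc2a1 (-0.27 ± 0.084, edgeR adjusted p = 0.0202) were lower in M2-like cells, against 9.19% of all genes called lower. No gene of the set was higher, beside 10.7% of all genes (19.9% in either direction). The call of Slc2a1 was lost without M0 replicate 3 (-0.22, edgeR adjusted p = 0.112) or M2-like replicate 3 (-0.24, edgeR adjusted p = 0.0756). That of Slc2a9 was lost without M0 replicate 2 (-0.35, edgeR adjusted p = 0.111) or M2-like replicate 1 (-0.36, edgeR adjusted p = 0.0996). Slc16a7 was 0.22 ± 0.081 higher (edgeR adjusted p = 0.0523) and passed with the replicate block (edgeR adjusted p = 0.0285), DESeq2 (adjusted p = 0.0411), RLE size factors and the filter of 10 reads in every sample. Between mock M2-like and mock M0 cells, 0 of the 10 genes passed by edgeR or DESeq2, where 3.83% of all genes passed by edgeR (2.19% higher and 1.64% lower). An unadjusted p under 0.05 was found for 4 of the 10 genes and for 2515 of the 14172 genes tested.

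**Figure D4:**
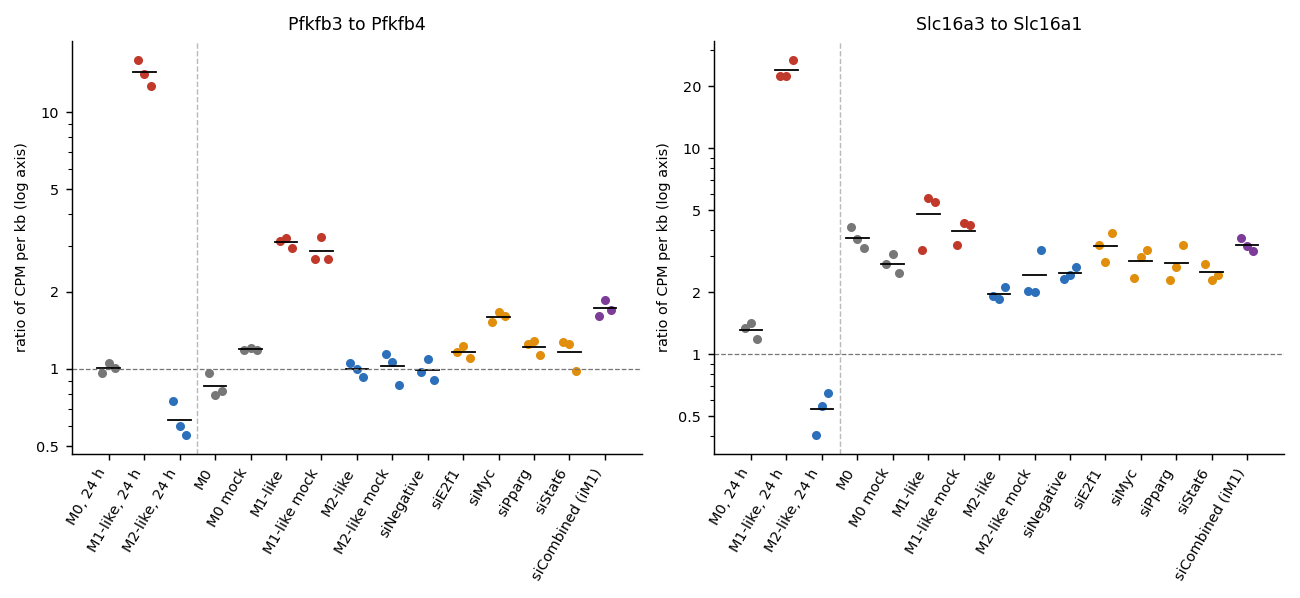
Ratios of transcript levels per kb, Pfkfb3 to Pfkfb4 (left) and Slc16a3 to Slc16a1 (right), in every sample of the 15 conditions (log axis); points are samples and bars are group means. The Pfkfb3 to Pfkfb4 ratio is 14.3 in M1-like cells at 24 h, 1.01 in M0 cells at 24 h, 0.995 in untransfected M2-like cells of the reprogramming experiment and 1.72 after the combined pool.

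Transfection reagent alone changed few of these genes. In M0 cells Slc16a3 fell (log2 -0.30 ± 0.11, edgeR adjusted p = 0.0475), Pfkfb4 fell (-0.23 ± 0.071, edgeR adjusted p = 0.0183) and Pfkfb3 rose (0.25 ± 0.075, edgeR adjusted p = 0.0156), beside 20.4% of all genes called (11.7% higher and 8.66% lower). Each of these calls was lost in some or all of the fits that left out 1 library. The Slc16a3 call was lost without any of the 6 libraries (edgeR adjusted p = 0.0551 to 0.188), that of Pfkfb3 without M0 replicate 2 or mock replicate 2 or 3 (0.0540 to 0.0988), and that of Pfkfb4 without M0 replicate 2 or 3 or mock replicate 1 (0.0515 to 0.117). In M1-like cells edgeR called 0 of the 10 genes and 0 of all genes (0.00%). An unadjusted p under 0.05 was found there for 2 of the 10 and for 438 of the 14172 genes tested. In M2-like cells 0 of the 10 passed, beside 1.77% of all genes. Of the 10, 0 had an unadjusted p under 0.05 there, beside 1277 of the 14172 genes tested. The M1-like to M2-like difference did not change detectably with mock treatment for any of the 10 genes, whose edgeR adjusted p for the interaction was 0.739 or more, beside 1.13% of all genes. The negative siRNA pool raised Slc2a1 over mock M2-like cells, from 88.5, 82.5 and 86.6 CPM to 114, 117 and 106 CPM (log2 0.39 ± 0.084, edgeR adjusted p = 0.00172), and no other member, beside 11.7% of all genes (6.67% higher and 5.03% lower). The negative pool is therefore the reference for the specific pools here, although its supplier is not given in the sources used here.

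The siRNA pools lowered their targets. In percent of the negative pool mean, E2f1 stood at 25.2 ± 4.1 after its own pool and 60.4 ± 2.0 after the combined pool, Myc at 38.01 ± 8.0 and 39.6 ± 3.2, Pparg at 21.9 ± 2.6 and 28.3 ± 2.2, and Stat6 at 27.3 ± 5.8 and 53.9 ± 4.8 (SD, n = 3 each). Pparg was also at 65.2 ± 5.7 percent after the Myc pool, and it was lower after the E2f1 pool (104 against 130.2 CPM, edgeR adjusted p = 0.0366) and the Stat6 pool (102 CPM, edgeR adjusted p = 0.0160).

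The Myc pool changed 5 of the 10 genes, 2 higher and 3 lower, where 13.9% and 15.6% of all genes were called. Slc2a6 rose from 34.4, 33.4 and 36.8 CPM with the negative pool to 59.4, 65.4 and 84.1 CPM (log2 0.99 ± 0.14, edgeR adjusted p = 2.54e-06). Slc16a7 fell from 33.9, 32.3 and 35.3 CPM to 23.2, 22.0 and 20.9 CPM (-0.62 ± 0.082, edgeR adjusted p = 8.96e-07). Neither gene overlapped between the groups. Pfkfb4 fell from 51.2, 50.2 and 54.6 CPM to 40.7, 40.4 and 38.8 CPM (-0.38 ± 0.071, edgeR adjusted p = 1.36e-04), while Pfkfb3 rose from 77.2, 85.3 and 76.8 CPM to 96.4, 104 and 96.6 CPM (0.31 ± 0.075, edgeR adjusted p = 0.00184). With mock cells as the reference the Pfkfb3 difference was 0.17 and did not pass (edgeR adjusted p = 0.0763). Slc2a3 fell (-0.71 ± 0.23, edgeR adjusted p = 0.0199), a call lost without negative pool replicate 1 (-0.58, edgeR adjusted p = 0.109) and without Myc pool replicate 3 (-0.63, edgeR adjusted p = 0.0781). That call was also lost with mock cells as the reference (-0.46, edgeR adjusted p = 0.151), without the filter (edgeR adjusted p = 0.107) and with only the compared groups fitted (edgeR adjusted p = 0.0534).

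The other single pools changed fewer genes. After the Pparg pool Slc2a6 stood at 61.0, 57.8 and 76.9 CPM, above every negative pool library (log2 0.90 ± 0.14, edgeR adjusted p = 7.57e-05), and Pfkfb3 at 96.4, 102 and 96.0 CPM (0.30 ± 0.075, edgeR adjusted p = 0.0134), so that 2 genes rose and 0 fell, where 2.71% and 3.03% of all genes were called. The Pfkfb3 call was lost with mock cells as the reference (0.15, edgeR adjusted p = 0.174), without Pparg pool replicate 2 (edgeR adjusted p = 0.0667) and without negative pool replicate 1 (edgeR adjusted p = 0.0729) or 3 (edgeR adjusted p = 0.0828). After the E2f1 pool 0 genes of the set passed by edgeR or DESeq2, where 0.910% of all genes passed by edgeR (0.261% higher and 0.649% lower). An unadjusted p under 0.05 was found for 2 genes of the set and for 1539 of the 14172 genes tested. Slc16a1 was at 11.1, 13.2 and 10.4 CPM against 15.3, 15.1 and 15.4 CPM (log2 -0.40 ± 0.12, edgeR adjusted p = 0.144). After the Stat6 pool 0 passed by edgeR or DESeq2, where 1.51% of all genes passed by edgeR (0.466% higher and 1.04% lower). An unadjusted p under 0.05 was found for 1 gene of the set and for 1713 of the 14172 genes tested. Slc2a6 was at 39.1, 44.7 and 50.5 CPM (0.36 ± 0.14, edgeR adjusted p = 0.256). Whether the pools differ from each other was not tested, and the Myc siRNA also differed from the other single pools in supplier.

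The combined pool changed 7 of the 10 genes against the negative pool, 3 higher and 4 lower, where 12.5% and 13.9% of all genes were called. Slc2a6 rose most, to 82.0, 69.8 and 90.5 CPM (2.31-fold, log2 1.21 ± 0.14, edgeR adjusted p = 1.13e-07). Pfkfb3 rose to 95.4, 108 and 102 CPM (0.35 ± 0.075, edgeR adjusted p = 5.87e-04), and Slc16a3 from 42.7, 44.2 and 49.0 CPM to 57.2, 52.7 and 58.4 CPM (0.31 ± 0.11, edgeR adjusted p = 0.0306). These 3 genes did not overlap between the groups, but the Slc16a3 call was lost in 4 of the 6 fits that left out 1 library, those without combined pool replicate 1 or 3 or negative pool replicate 1 or 2 (edgeR adjusted p = 0.0832, 0.0985, 0.119 and 0.0870). Slc16a7 fell to 25.2, 22.0 and 22.1 CPM (-0.56 ± 0.083, edgeR adjusted p = 6.15e-06), and Pfkfb4 to 38.3, 37.5 and 38.8 CPM (-0.44 ± 0.072, edgeR adjusted p = 2.08e-05). The ratio of Pfkfb3 to Pfkfb4 per kb was 1.72 ± 0.13 after the combined pool, 1.60 ± 0.067 after the Myc pool and 0.992 ± 0.096 after the negative pool (SD, n = 3).

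Slc2a3 and Slc2a8 also fell with the combined pool. Slc2a3 went from 2.05, 1.67 and 1.54 CPM to 1.02, 0.761 and 0.912 CPM (log2 -0.97 ± 0.24, edgeR adjusted p = 0.00324), which was the direction opposite to that in M1-like cells of this experiment. Slc2a8 went from 14.7, 15.7 and 15.04 CPM to 11.5, 12.8 and 10.9 CPM (-0.36 ± 0.11, edgeR adjusted p = 0.0144), a call lost without combined pool replicate 3 (edgeR adjusted p = 0.0707) or negative pool replicate 2 (edgeR adjusted p = 0.0508). Slc2a1 (0.05 ± 0.083, edgeR adjusted p = 0.693), Slc2a9 (-0.03 ± 0.13, edgeR adjusted p = 0.909) and Slc16a1 (-0.15 ± 0.12, edgeR adjusted p = 0.397) did not pass. Against mock M2-like cells instead, 4 genes were higher and 4 lower (19.0% and 18.1% of all genes, 37.1% together), and Slc2a1 was then among the higher genes (0.44 ± 0.084, edgeR adjusted p = 9.05e-05). The summed level of 8 neutrophil markers, of which Mmp8 and S100a8, and with the negative pool Cxcr2, were above a mean of 1 CPM and S100a9 was at 0 in these pools, was 56.6 to 63.5 CPM after the combined pool, 88.9 to 113.6 CPM after the Pparg pool, 53.2 to 61.7 CPM after the Myc pool and 30.1 to 46.4 CPM after the negative pool, and its part in the result was not tested.

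**Figure D5:**
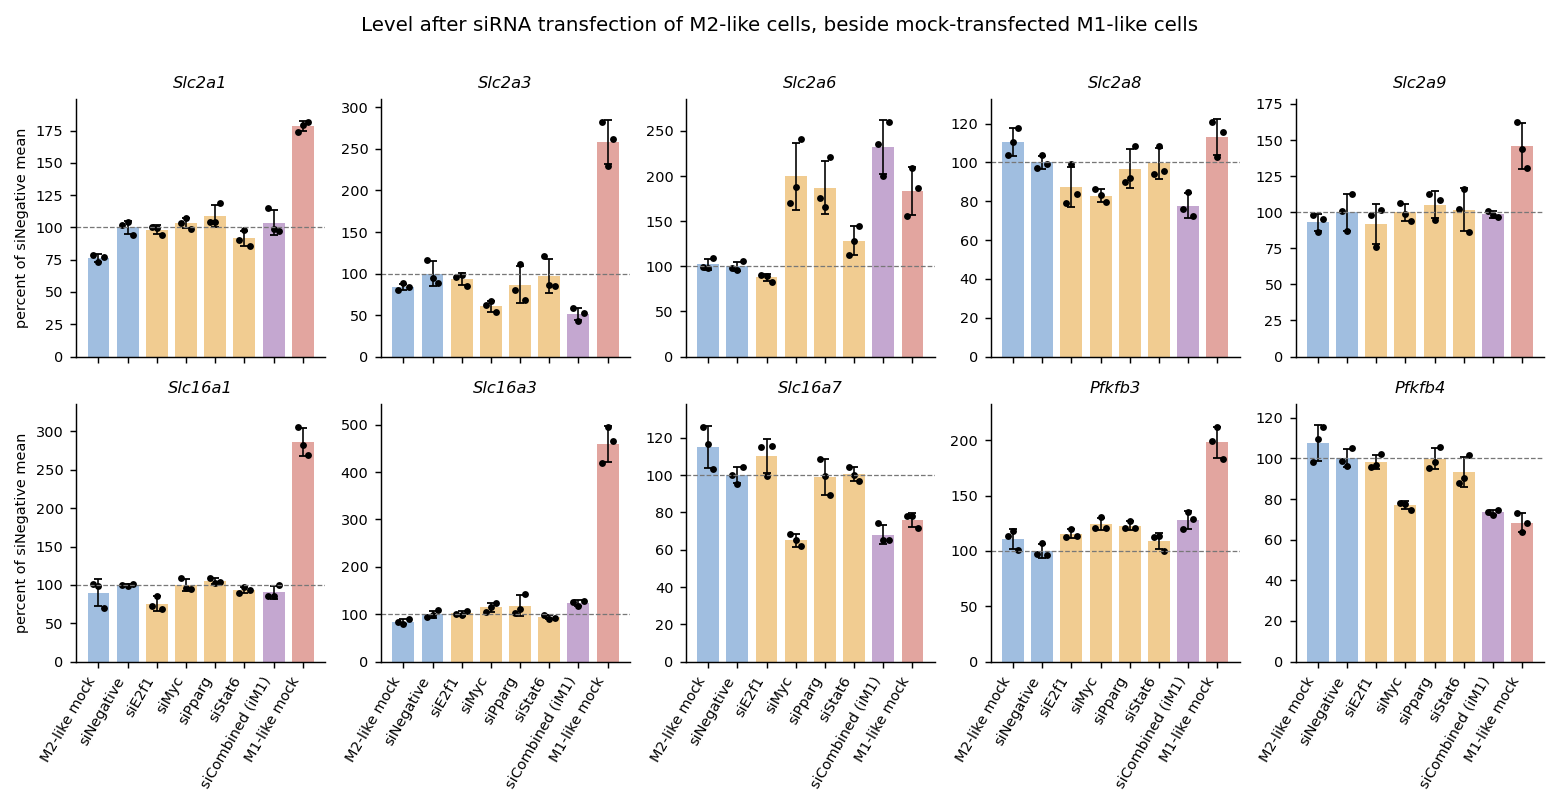
Level of the 10 genes in M2-like cells after mock treatment or each siRNA pool, and in mock M1-like cells, in percent of the negative pool mean; points are libraries, bars are means, error bars are SD (n = 3) and the dashed line is 100 percent. Slc2a6 stands at 232 percent after the combined pool and 184 percent in mock M1-like cells, whereas Slc16a3 stands at 124 and 459 percent.

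The last question was how near the reprogrammed cells came to M1-like cells. Compared with mock M1-like cells, cells given the combined pool had 7 of the 10 genes lower and 1 higher, where 25.6% and 27.2% of all genes were called. Mock M1-like cells received no siRNA, and there was no M1-like group with the negative pool. Receipt of siRNA and polarization state therefore cannot be told apart in this comparison. The negative pool alone raised Slc2a1 over mock M2-like cells, as given above. The exporter and carrier genes were far below: Slc16a3 was at 57.2, 52.7 and 58.4 CPM against 189.7, 224 and 210.4 CPM (log2 -1.89 ± 0.11, edgeR adjusted p = 5.57e-16), and Slc16a1 at 13.0, 13.1 and 15.3 CPM against 46.7, 43.1 and 41.2 CPM (-1.66 ± 0.12, edgeR adjusted p = 1.29e-13). Slc2a3 was lower by 5.03-fold (-2.33 ± 0.22, edgeR adjusted p = 1.83e-10). Slc2a1, at 129, 111 and 109 CPM against 196, 202 and 204 CPM, was lower by 1.72-fold (edgeR adjusted p = 1.97e-09), and Pfkfb3, Slc2a8 and Slc2a9 were also lower.

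Slc2a6 was the single gene higher than in mock M1-like cells, by 0.34 ± 0.14 on the log2 scale (edgeR adjusted p = 0.0386). Its samples overlapped, since combined pool replicate 2 (69.8 CPM) lay below mock M1-like replicate 2 (72.6 CPM), and the call was lost without mock M1-like replicate 1 (0.23, edgeR adjusted p = 0.210) or 3 (0.35, edgeR adjusted p = 0.0653) and without combined pool replicate 1 (0.32, edgeR adjusted p = 0.0830) or 3 (0.25, edgeR adjusted p = 0.183). Slc16a7 (-0.16 ± 0.083, edgeR adjusted p = 0.111) and Pfkfb4 (0.10 ± 0.073, edgeR adjusted p = 0.236) did not pass; a p above the threshold does not show that they were equal. The summed M1-like markers were 52.3 to 67.5 CPM after the combined pool, 607.7 to 750.1 CPM in mock M1-like cells and 26.1 to 30.8 CPM after the negative pool.

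Few of the remaining family genes were called higher in M1-like cells. None of 7 further GLUT family genes had enough reads to be tested. Of 11 further MCT family genes, 7 were tested at 24 h, and 0 were higher and 6 lower in M1-like cells than in M0, beside 35.4% and 37.5% of all genes. Those with the largest changes had low levels, Slc16a14 at a mean of 1.96 CPM in M0 and 0.022 CPM in M1-like cells and Slc16a9 at 0.502 and 0.0085 CPM. In mock cells of the reprogramming experiment 1 of 9 had the higher level and 5 the lower level in M1-like cells set against M2-like cells, beside 30.9% and 29.8% of all genes, among them Slc16a9 at 0.068 against 1.07 CPM. Of the other PFKFB genes at 24 h, Pfkfb2 was lower in M1-like cells than in M0 (log2 -0.92), and Pfkfb1 was not called. In the reprogramming experiment Pfkfb2 was higher in mock M1-like than in mock M0 cells (0.31 ± 0.090, edgeR adjusted p = 0.00369), with samples that overlapped. Pfkfb1 was higher in untransfected M1-like than in M2-like cells (0.97 ± 0.28, edgeR adjusted p = 0.00338). Neither was called in mock M1-like against mock M2-like cells or in untransfected M1-like against M0 cells.

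Partners and regulators of these proteins mostly rose with the classical stimulus. The list held Bsg and Emb, chaperones that bring MCT proteins to the membrane, Txnip and Arrdc4, arrestin-like inhibitors of glucose uptake, Tigar, a phosphatase that lowers glycolysis, and Hif1a, a transcription factor for glycolytic genes. At 24 h 5 of the 6 were higher and 0 lower in M1-like cells than in M0, where 35.4% and 37.5% of all genes were called, with the largest changes in Hif1a (log2 3.02) and Arrdc4 (1.94). In mock cells 4 rose and 0 fell in M1-like cells set against M2-like cells (30.9% and 29.8% of all genes), including Arrdc4 (1.08 ± 0.092) and Hif1a (0.76 ± 0.095). The combined pool gave 2 higher and 2 lower against the negative pool (12.5% and 13.9% of all genes), with Arrdc4 at 65.1 against 38.3 CPM (0.76 ± 0.090) and Emb at 114 against 172 CPM (-0.60 ± 0.085).

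Between glucose entry and lactate exit lie the glycolytic enzymes, for which 19 of 20 listed genes were tested. At 24 h, 15 were higher and 4 lower in M1-like cells than in M0, beside 35.4% and 37.5% of all genes. The largest changes were in Ldhb (log2 -4.17), which encodes a lactate dehydrogenase subunit, and Hk2 (3.504), an inducible hexokinase. In mock M1-like cells 12 were higher and 3 lower than in mock M2-like cells (30.9% and 29.8% of all genes), with Eno3 at 14.8 against 3.71 CPM (1.99 ± 0.16) and Eno2 at 24.5 against 79.9 CPM (-1.71 ± 0.13). The combined pool gave 3 higher and 7 lower against the negative pool (12.5% and 13.9% of all genes), led by Aldoc, an aldolase (-1.31 ± 0.24), and Pfkl, a phosphofructokinase subunit (0.76 ± 0.10). The Myc pool gave 3 higher and 8 lower (13.9% and 15.6% of all genes), led by Aldoc (-1.06 ± 0.23) and Eno2 (-0.79 ± 0.13). Against mock M1-like cells, which received no siRNA, cells given the combined pool had 16 lower and 1 higher, where 25.6% and 27.2% of all genes were called. Gapdh, Pgk1 and Eno1 have many near-identical pseudogenes with which reads may be shared, so their part in these counts is uncertain.

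Genes with the most similar profile over the 12 reprogramming conditions were found by Pearson's correlation of mean log2 CPM among 10134 genes, as a description without a test, since the conditions share cultures and controls. For Slc2a6 these were Arl5c (r = 0.957), Exosc4 (0.951) and Sh2b2 (0.943). For Slc16a3 they were Arhgef3 (0.990), Coasy (0.989) and Stx2 (0.989), and for Pfkfb3 Pcnx (0.991), Ift172 (0.985) and Rbm33 (0.984). Within the set, Slc16a3 was closest to Slc2a1 (0.972), Pfkfb3 (0.950) and Slc16a1 (0.948). The profile of Slc2a6 was less like that of Slc2a1 (0.624) or Slc16a3 (0.553) and ran opposite to those of Pfkfb4 (-0.843) and Slc16a7 (-0.840).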

How the data were processed

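RNA-seq of thioglycolate-elicited peritoneal macrophages was available as 54 libraries. Per the labels and methods, the authors trimmed reads (50 nt single-end for polarization, 150 nt paired-end for reprogramming) with Trimmomatic, aligned them to GRCm38/mm10 with TopHat2 and counted them per gene with featureCounts. The deposited files hold raw read counts per Ensembl gene; tool versions, strand setting and treatment of multi-mapping reads are not given in the sources used here. Gene models were taken from GENCODE M21 and promoters from RefSeq.

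Technical replicates of the polarization experiment were summed to 9 samples. Each experiment was fitted separately with edgeR 4.0.16 in R 4.3.3 (filterByExpr with minimum count 10 and minimum total 15, TMM, 1 coefficient per group, quasi-likelihood test, Benjamini-Hochberg adjustment over all genes tested, threshold 0.05) for 21 comparisons. Library totals ranged from 13421854 to 29880494 counted reads. Of the genes named, all 10 members were named in full, from the other lists those 2 past the threshold with the largest absolute log2 fold change, and for similar profiles the 3 genes closest to the member of each role that changed most in M1-like cells against M0 at 24 h. Of the genes that this rule names, 1 is not reported here. The exceptions, named after their values were seen, are Pfkfb2, Pfkfb1, Gapdh, Pgk1 and Eno1. Among the polarization markers they are Chil3 and Arg1 and, among the cell type markers, Mmp8, S100a8, S100a9, Cxcr2, Siglecf and Prg2. The members and lists were chosen with earlier results of these data known.

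In the polarization experiment replicate numbers are mice, so the samples are paired by label; same-mouse deviations correlated with a median r of 0.25 against -0.135 for different mice, and 8 of 9 samples correlated best with their own mouse. Alternatives were DESeq2 1.42.0, RLE size factors, no filter, at least 10 reads in every sample, a replicate block, only the compared groups, technical replicates kept separate, a minimum fold, mock as reference, and leaving out each sample. The test was checked on simulated counts for the Myc pool against the negative pool (13892 genes), where it recovered 86 of 100 genes changed by log2 1 and 100 of 100 changed by log2 2. It also called 4 unchanged genes. Smaller changes were not simulated, and 0 of the Myc pool calls on the 10 genes reached log2 1, so recovery at their size is not known.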

Additional observations from a re-analysis of the deposited data

Results flagged for a closer look

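In 5 contrasts every sample of a gene moved one way at 24 h and the opposite way in the reprogramming experiment. The differences between the experiments were not tested, and read length and laboratory differ with them, as does time after the stimulus for mock-treated cells; for untransfected cells that time is not given in the sources used here. Slc2a9 in M1-like against M0 cells was -1.27 on the log2 scale at 24 h and 0.33 in mock-treated cells. Slc2a9 in M1-like against M2-like cells was -1.04 at 24 h, 0.55 in untransfected cells and 0.64 in mock-treated cells. For M2-like against M0 cells, Slc16a7 was -0.21 at 24 h and 0.22 in untransfected cells, and Pfkfb3 was -0.44 at 24 h and 0.090 in untransfected cells. Neither value in untransfected cells passed (edgeR adjusted p = 0.0523 for Slc16a7 and 0.435 for Pfkfb3). The 24 h call of Slc16a7 was itself lost on leaving out any single M0 sample.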

How the results depend on the processing

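Of 2640 values of the 10 genes under alternatives, 2544 kept their direction and their side of the threshold, 74 lost the call, 20 gained one and 2 reversed; in the reported fits 96 of 210 were called. A further condition, a change of 1 or more on the log2 scale, left 0 of the genes called for M2-like against M0 cells in both experiments, for mock in M0, the negative pool against mock, and the Myc and Pparg pools. It left 5 for untransfected M1-like against M0 and against M2-like cells, 3 for mock M1-like against mock M0, 4 for mock M1-like against mock M2-like, 1 for the combined pool against mock or the negative pool, and 3 for the combined pool against mock M1-like cells. This follows from the added threshold. The share of all genes called is not given here for the alternatives, so counts under them cannot be set against a background. The negative pool alone differed from mock in 11.7% of all genes. With mock as the reference the E2f1 pool had 2 genes called and the Stat6 pool 1, and without the filter the Stat6 pool had 1 (Slc2a6). That reference also gave the Myc pool 6 calls rather than 5, with Slc2a1 (0.44), Slc16a3 (0.43) and Slc2a8 (-0.41) gained and Pfkfb3 and Slc2a3 lost, and the Pparg pool 3 rather than 2, with Slc2a1 (0.52) and Slc16a3 (0.48) gained and Pfkfb3 lost. With mock as the reference Slc2a1 turned from -0.03 to 0.36 (edgeR adjusted p = 0.00355) for the E2f1 pool and from -0.13 to 0.26 (edgeR adjusted p = 0.0398) for the Stat6 pool, beside its rise of 0.39 with the negative pool over mock; the cause was not tested.

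With the replicate block, 6 genes rather than 7 were called for M2-like against M0 at 24 h (Slc16a7 lost) and 4 rather than 3 in untransfected cells (Slc16a7 gained), and no other call changed. In the reprogramming experiment the numbers share no stated origin: same-number deviations had a median r of 0.183 and a minimum of -0.249, and 35 of 36 libraries correlated best with their own number.

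Leaving out 1 sample at a time gave these ranges of genes called: M1-like against M0 and M2-like at 24 h 9 to 9 and 8 to 10; M2-like against M0 4 to 6; untransfected M1-like against M0 and M2-like 8 to 8 and 9 to 10; untransfected M2-like against M0 2 to 3; mock M1-like against M0 and M2-like 8 to 9 and 9 to 9; mock M2-like against M0 0 to 1; mock in M0 0 to 2, and in M1-like and M2-like cells 0 to 0; negative pool against mock 1 to 2; combined pool against mock, negative pool and mock M1-like 6 to 8, 5 to 7 and 7 to 8; Myc pool 4 to 5, Pparg pool 1 to 2, E2f1 and Stat6 pools 0 to 0; interaction 0 to 0. Counting precision limits Slc2a3 most, with 14 to 102 reads a sample.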
